A study of Homo sapiens with 18 samples.

Results

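Box C/D small nucleolar RNAs were followed across 6 groups of Burkitt lymphoma cells. They were taken as the probes whose annotated gene symbol begins with SNORD and a number. Of 38 such symbols, 5 were set aside (SNORD46, SNORD38A, SNORD14A, SNORD14C and SNORD14D), which left 33 RNAs with 1 probe each among 12696 named genes. The cells were DG75, a line grown from a Burkitt lymphoma and free of the Epstein-Barr virus, and Raji, a Burkitt lymphoma line that carries the virus. DG75 cells were exposed to 75 µM TPCK, exposed to 50 µM Bay-11 or left untreated, and Raji cells were treated in the same 3 ways, each for 1 h. Bay-11 keeps the NF-kB inhibitor IkB from being phosphorylated. TPCK, a chloromethyl ketone, inactivates chymotrypsin-like proteases. Each of the 6 groups had 3 Illumina bead arrays, 18 in all, and the study asked how the NF-kB network of these cells responds to the compounds. TPCK stands in the design text for Raji alone, but sample titles and column names list it for DG75 as well, and the titles were followed.

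Box C/D small nucleolar RNAs are short nuclear RNAs that carry the C and D sequence boxes and assemble with the proteins FBL, NOP56, NOP58 and SNU13. Most of them base-pair with ribosomal RNA and direct the methyltransferase FBL to a ribose to be methylated, and a few take part in cutting the ribosomal RNA precursor. In human cells most lie in introns of other genes and are trimmed out of the spliced and debranched intron, so that a host gene and its small RNAs arise from the same transcript. Many hosts encode ribosomal proteins or noncoding RNAs whose spliced form is short-lived.

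By the reference annotation, 24 of the 33 RNAs lie within 14 ribosomal protein genes. A further 5 (SNORD22, SNORD25, SNORD27, SNORD30 and SNORD31) lie within the noncoding gene SNHG1, SNORD48 within SNHG32, SNORD56 within NOP56 and SNORD109B within the imprinted gene SNHG14. SNORD13 lies in no other gene and is known to have a promoter of its own. Genes of this kind often start transcription in an unbroken run of C and T, and the starts of hosts with an RNA called in a comparison of a treatment with control are shown for that reason, where the promoter table holds them. Each window runs from 40 bases before to 20 bases from the annotated start, with the longest C and T run that touches the 5 bases on either side of the start in capitals (RefSeq, build GRCh38.p14).
RPL13A, host of SNORD32A, SNORD33, SNORD34 and SNORD35A (chr19:49487568-49487627, plus strand): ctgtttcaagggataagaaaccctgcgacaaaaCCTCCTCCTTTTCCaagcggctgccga
RPL3, host of SNORD43 (chr22:39319604-39319663, minus strand): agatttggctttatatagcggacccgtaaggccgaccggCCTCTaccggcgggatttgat
RPL7A, host of SNORD36A and SNORD36C (chr9:133348178-133348237, plus strand): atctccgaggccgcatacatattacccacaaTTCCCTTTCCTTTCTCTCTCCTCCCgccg
RPS3, host of SNORD15B (chr11:75399478-75399537, plus strand): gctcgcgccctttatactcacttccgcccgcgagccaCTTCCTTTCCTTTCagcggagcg
DIPK1A, which overlaps SNORD21 (chr1:92961443-92961502, minus strand): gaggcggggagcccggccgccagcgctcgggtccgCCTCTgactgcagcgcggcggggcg
RPS12, host of SNORD100 and SNORD101 (chr6:132814529-132814588, plus strand): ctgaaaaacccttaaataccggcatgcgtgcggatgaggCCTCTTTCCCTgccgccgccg
RPS13, host of SNORD14B (chr11:17077648-17077707, minus strand): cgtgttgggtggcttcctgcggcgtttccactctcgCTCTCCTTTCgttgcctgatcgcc
RPS3A, host of SNORD73A (chr4:151099588-151099647, plus strand): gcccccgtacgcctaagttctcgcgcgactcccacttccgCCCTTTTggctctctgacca
SNHG1 (chr11:62855866-62855925, minus strand): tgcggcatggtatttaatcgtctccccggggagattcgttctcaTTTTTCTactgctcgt
SNHG32, host of SNORD48 (chr6:31834876-31834935, plus strand): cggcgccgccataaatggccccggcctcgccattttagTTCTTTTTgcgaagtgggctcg
The run was 25 bases at RPL7A, 14 at both RPL13A and RPS3, 11 at RPS12, 10 at RPS13, 8 at SNHG32, 7 at both RPS3A and SNHG1 and 5 at both RPL3 and DIPK1A. A run of 8 or more on the strand of the gene stood at 7 of 13 hosts in the table (53.8%), against 11.5% of 35116 gene starts. Hosts with and without such a run both held small RNAs that fell after TPCK and small RNAs that did not.

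The arrays had 13072 to 15903 detected probes and mean raw signals of 171 to 298, and precision is limited by the number of arrays. Of 5 named B cell markers, 5 were detected on every array. A detection p under 0.01 on at least 3 arrays was required of a probe, which 31 of the 33 RNAs met. SNORD83A and SNORD109B were detected on 1 array each and are not described further. Of the 31 kept RNAs, 22 were detected on all 18 arrays and 9 on fewer, down to 3 arrays for SNORD18C. The arrays are named by the numbers in the deposited column names, which appear in no label. Control arrays are numbered 13 to 18 and treated arrays 1 to 12, so a batch or order behind the numbers cannot be told apart from treatment. Nothing in the labels says whether a group's arrays stand for separate cultures, so the p-values measure a spread that may be technical. In such bulk samples, fewer cells of a kind and less RNA per cell cannot be told apart.

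One array of each treatment stood apart in DG75. On the Bay-11 array numbered 10, 9 of the small RNAs lay over 0.5 log2 units below both other arrays of the group, against 0 to 3 on the other arrays of the study. Of these 9, 6 lay over 1 unit below (SNORD16, SNORD25, SNORD30, SNORD31, SNORD48 and SNORD68). On the TPCK array numbered 7, 6 of 6 named fibroblast and epithelium markers were detected, against 0 to 2 on the other arrays, while 0 of the small RNAs lay over 0.5 units below both other TPCK arrays. Myeloid markers numbered 4 of 4 on that array, against 3 or 4 on every other array, and the 1 named T cell marker was detected on every Raji array and on no DG75 array. The part of the marker genes in the results was not tested beyond leaving both arrays out.

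Relative to the other genes of the arrays, a set of box C/D RNAs fell in both lines after 1 h of TPCK, and other members rose after Bay-11. These are probe signals, and whether a probe reads the mature small RNA or its longer precursor was not tested. In DG75 after TPCK, 7 of 31 fell and 1 rose at an adjusted p under 0.05, while 0.327% of 10697 genes fell and 0.168% rose (0.495% in all). In Raji after TPCK, 5 fell and 2 rose, and over all genes 0.206% fell and 0.234% rose (0.439% in all). After Bay-11, 0 fell and 5 rose in DG75, where 0.178% of all genes fell and 0.439% rose (0.617% in all). In Raji after Bay-11, 0 fell and 4 rose, where 0.626% of all genes fell and 0.879% rose (1.51% in all). At an unadjusted p under 0.05 in limma, 4 RNAs were lower and 10 higher after Bay-11 in DG75 (5.75% and 13.2% of all genes), and 1 was lower and 11 higher in Raji (8.39% and 10.4%). Each change is a log2 fold change with its SE, from 3 arrays a group, tested with limma and adjusted by the Benjamini-Hochberg method over all genes.

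Single arrays moved these counts. With 1 array left out, the count in Raji after TPCK was 3 without array 1, 3, 16 or 17 and 4 without array 2. In Raji after Bay-11 it was 1 without array 4, 6 or 18 and 2 without array 17. In DG75 after Bay-11 it was 2 without array 11, 13 or 14, 3 without array 10 and 8 without array 12. In DG75 after TPCK it lay between 7 and 9. Shares of all genes with 1 array left out are not given, so these shifts are not shown to be particular to the small RNAs. Without arrays 7 and 10 together, 8 fell and 1 rose in DG75 after TPCK (0.374% and 0.234% of all genes), and 7 fell and 2 rose in Raji (0.271% and 0.337%). After Bay-11, 0 fell and 4 rose in DG75 (0.131% and 0.196%), and 1 fell and 6 rose in Raji (1.88% and 2.67%). Array 10 stood apart in the values of these small RNAs, so the counts without it give no independent support.

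The median change over the 31 RNAs was -0.45 in DG75 and -0.33 in Raji after TPCK, against 0.02 and 0.01 over all genes. With median centring in place of quantile normalization it was -0.11 in DG75 and 0.085 in Raji, against 0.30 and 0.55 over all genes. In Raji its sign thus turned, and in the raw signals of a second deposited table the DG75 median also lay slightly above 0. With quantile normalization, the median over the 31 RNAs after Bay-11 was 0.21 in DG75 and 0.15 in Raji, against 0.05 and 0.01 over all genes. Changes ran from -1.95 to 0.94 in DG75 and from -1.64 to 1.003 in Raji after TPCK. Over both treatments and lines, 15 of the 31 were called at least once, 16 were never called, and 0 were called in opposite directions.

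**Figure D1:**
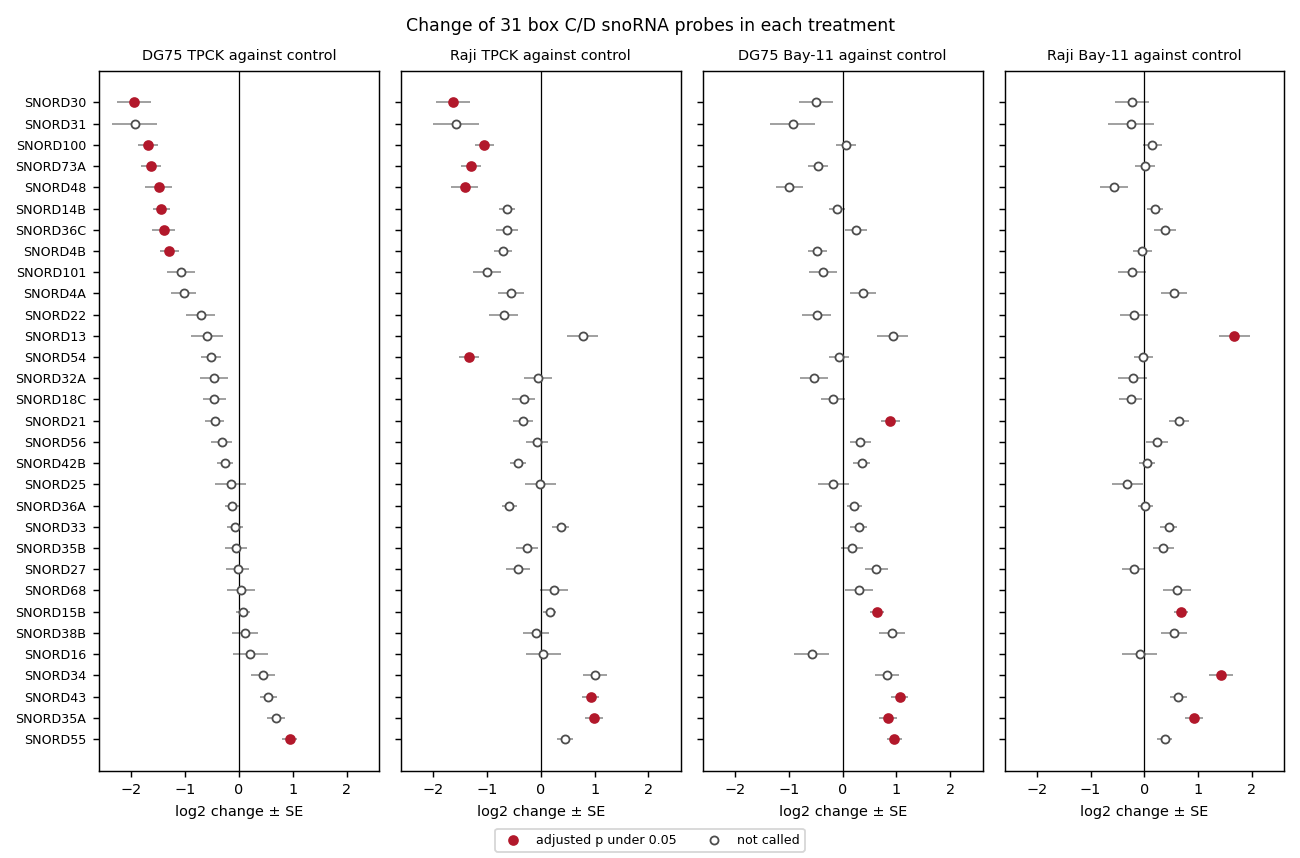
Log2 change ± SE (horizontal axis) of the 31 kept box C/D RNAs (1 per line), in 4 panels for DG75 after TPCK, Raji after TPCK, DG75 after Bay-11 and Raji after Bay-11, each against its untreated control (3 arrays per group). Filled points have an adjusted p under 0.05, and in the TPCK panels they lie mainly on the left, with SNORD30 at -1.95 in DG75 and -1.64 in Raji, while in the Bay-11 panels they lie on the right.

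**Figure D2:**
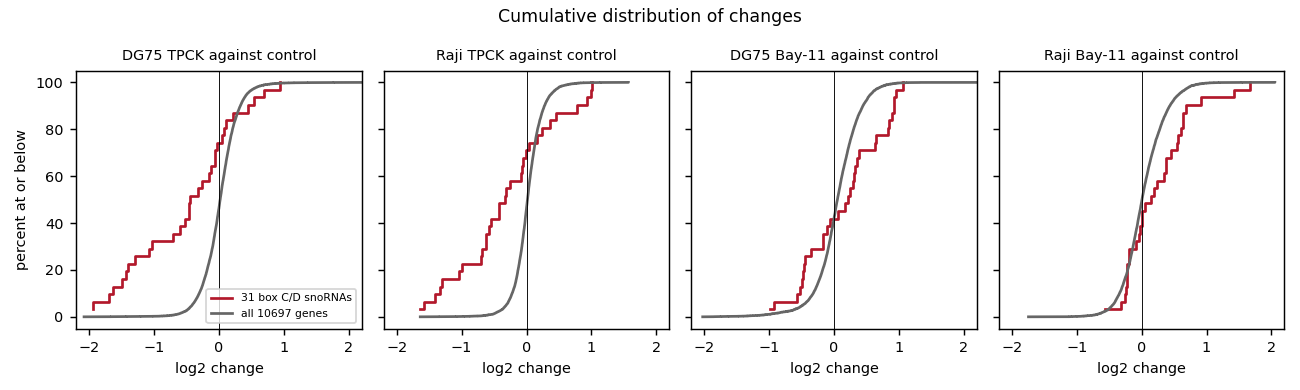
Percent of RNAs (vertical axis) whose log2 change is at or below the value on the horizontal axis, for the 31 box C/D RNAs and for all 10697 genes, in the same 4 comparisons. The red line of the small RNAs runs left of the grey line over most of the TPCK panels, where the medians are -0.45 against 0.02 in DG75 and -0.33 against 0.01 in Raji.

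The direction of these changes is relative to the other genes on the arrays. Quantile normalization sets the arrays to 1 common distribution, and with median centring the median of all genes was itself higher than the control by 0.30 in DG75 and 0.55 in Raji after TPCK, and by 0.34 and 0.33 after Bay-11. With no normalization between arrays these shifts were 0.39 and 0.66 after TPCK and 0.35 and 0.39 after Bay-11. Relative to the median of all genes, the median of the small RNAs after TPCK was -0.47 in DG75 when quantile normalized and -0.41 under both other settings. In Raji it was -0.35 and -0.46. The split of calls moved with the setting. With median centring 2 RNAs were lower (SNORD100 and SNORD73A, limma adjusted p = 0.0227 and 0.0212) and 2 higher in DG75 after TPCK, against 0.0561% and 0.15% of all genes. In Raji 4 were lower (SNORD30, SNORD48, SNORD54 and SNORD73A), against 0.103% of all genes. The 8 that were higher there stood beside 30.5% of all genes. With no normalization, limma called 0 lower and 1 higher in DG75 (0.00935% and 0.112% of all genes), where 9 were lower at an unadjusted p under 0.05. The share of all genes at that unadjusted p is not given for this setting. In Raji limma called 3 lower and 9 higher with no normalization (0.0467% and 47.2%). After Bay-11 with median centring, 8 RNAs were called in DG75 and 9 in Raji, all higher, beside 2.54% and 6.81% of all genes. No change called as quantile normalized turned its sign under these settings, but smaller ones did. SNORD56 in Raji after TPCK, not called as quantile normalized, turned above 0 and was called with no normalization (0.68, limma adjusted p = 0.0487). Of the 31 RNAs, 6 turned in DG75 and 9 in Raji after TPCK with median centring, and 7 and 11 with no normalization. Among these, in Raji SNORD36A, SNORD36C and SNORD4A were above their controls on average under both settings, and SNORD14B and SNORD42B with no normalization.

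SNHG1 holds guides for methylation of the large-subunit ribosomal RNA (SNORD30 and SNORD31) and of the small-subunit RNA (SNORD25 and SNORD27), and SNORD22, an RNA linked to processing of the ribosomal RNA precursor. SNORD30 had normalised log2 signals of 5.45, 5.17 and 5.80 in DG75 after TPCK, against 7.46, 7.19 and 7.62 in DG75 controls. In Raji it had 6.16, 5.97 and 6.18 after TPCK, against 7.73, 7.64 and 7.85 in controls. All TPCK values lay below all control values in both lines, and the fall was 3.86-fold in DG75 (-1.95 ± 0.32, limma adjusted p = 0.00583) and 3.11-fold in Raji (-1.64 ± 0.32, adjusted p = 0.0312). With median centring the DG75 change was -1.56 and not called (adjusted p = 0.0869). In Raji this call was lost with any 1 of the 6 arrays left out (highest adjusted p = 0.164).

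SNORD31 showed changes of nearly the same size that did not pass the test. It had 7.02, 7.05 and 7.16 in DG75 after TPCK, against 8.79, 9.02 and 9.24 in controls. In Raji it had 7.06, 6.88 and 7.27 after TPCK, against 8.46, 8.60 and 8.87 in controls. The groups did not overlap, and the changes were -1.94 ± 0.42 in DG75 (limma adjusted p = 0.0546) and -1.58 ± 0.42 in Raji (adjusted p = 0.191). The shared estimate of its spread includes Bay-11 array 10, where it read 6.50 against 9.10 and 8.66 on arrays 11 and 12. Without arrays 7 and 10 both changes were called (adjusted p = 2.60e-05 in DG75 and 9.93e-05 in Raji). Array 10 stood apart in the values of SNORD31 itself, so leaving it out lowers the spread and gives no independent support. Its Bay-11 change in DG75 was -0.93 ± 0.42 (adjusted p = 0.248), and -0.13 without those arrays.

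The other RNAs of SNHG1 changed less after TPCK. SNORD22 lay below its controls on every TPCK array of both lines, with changes of -0.71 ± 0.27 in DG75 (limma adjusted p = 0.311) and -0.69 ± 0.27 in Raji (adjusted p = 0.550). SNORD25 had changes of -0.15 ± 0.29 in DG75 and -0.01 ± 0.29 in Raji, and its TPCK and control values overlapped in both lines. SNORD27 was detected on 9 of 18 arrays and on no DG75 control array. The 95% intervals of the SNORD25 changes were -0.76 to 0.45 in DG75 and -0.61 to 0.60 in Raji. A difference between RNAs of 1 host was not tested, since they are different probes. No probe of the array is annotated here to SNHG1 itself.

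**Figure D3:**
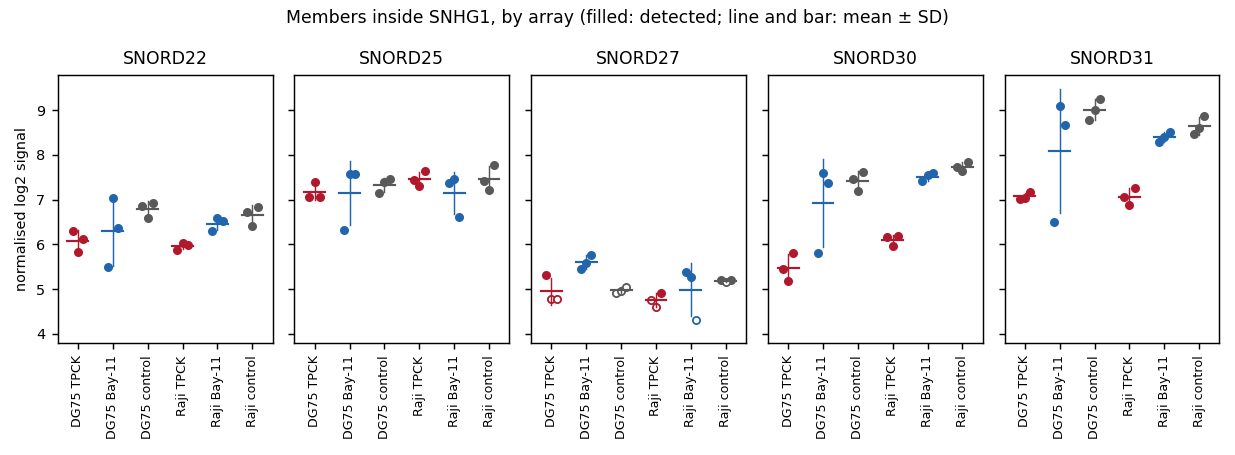
Normalised log2 signal (vertical axis) of the 5 box C/D RNAs inside SNHG1 on each array, by group, with DG75 left and Raji right; filled points are detected, horizontal lines are means and vertical bars are SDs of 3 arrays. SNORD30 and SNORD31 lie lower on all TPCK arrays than on all control arrays, SNORD25 overlaps, and the lowest DG75 Bay-11 point in SNORD30 and SNORD31 is array 10.

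Guides that fell after TPCK in both lines came from 4 hosts. They were SNORD30, SNORD48, SNORD73A and SNORD100, which are 4 of the 7 that fell in DG75 and of the 5 that fell in Raji. SNORD73A, a large-subunit guide within RPS3A, had 5.06, 5.47 and 5.07 in DG75 after TPCK, against 6.78, 6.77 and 6.96 in controls. Its Raji values were 4.91, 5.11 and 5.30 after TPCK, against 6.39, 6.34 and 6.48 in controls. The groups stood over 1 unit apart in each line, with a 3.12-fold fall in DG75 (-1.64 ± 0.18, limma adjusted p = 0.000113) and a 2.46-fold fall in Raji (-1.30 ± 0.18, adjusted p = 0.00272). One Raji TPCK value, 4.91, was not detected above background. Both calls held with any 1 array left out.

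SNORD100, a small-subunit guide within RPS12, had 5.30, 5.30 and 5.83 in DG75 after TPCK, against 7.18, 6.96 and 7.38 in controls. Its Raji values were 6.44, 6.91 and 7.05 after TPCK, against 7.81, 7.96 and 7.77 in controls. No TPCK value reached a control value, and the fall was 3.23-fold in DG75 (-1.69 ± 0.18, limma adjusted p = 6.24e-05) and 2.07-fold in Raji (-1.05 ± 0.18, adjusted p = 0.0132). The Raji call ended when array 1, 16 or 17 was left out (highest adjusted p = 0.0735). In Raji the change was -0.38 with median centring and was not called (adjusted p = 0.203). SNORD101, the other RNA of RPS12, for which no target is known, also lay below its controls on all TPCK arrays, with changes of -1.08 ± 0.26 in DG75 (adjusted p = 0.0874) and -0.996 ± 0.257 in Raji (adjusted p = 0.160). In DG75 it was detected on 1 of the 3 TPCK arrays, so the size of that change is uncertain.

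SNORD48, a large-subunit guide within SNHG32, had 5.54, 5.42 and 5.61 in DG75 after TPCK, against 6.94, 7.13 and 6.99 in controls. The Raji values were 5.10, 5.14 and 5.01 after TPCK, against 6.80, 6.40 and 6.31 in controls, and the groups stood apart in each line. The fall was 2.82-fold in DG75 (-1.50 ± 0.25, limma adjusted p = 0.00859) and 2.67-fold in Raji (-1.42 ± 0.25, adjusted p = 0.0171). In DG75 the call ended when control array 14 was left out (adjusted p = 0.0573) and with median centring (adjusted p = 0.136). In Raji it ended when array 1, 2, 3, 16 or 17 was left out (highest adjusted p = 0.109). SNORD48 was also the 1 RNA below its controls on every Bay-11 array of both lines, with changes of -0.99 ± 0.25 in DG75 (adjusted p = 0.0815, 0.00931 without array 12 and 0.212 without arrays 7 and 10) and -0.56 ± 0.25 in Raji (adjusted p = 0.247).

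SNORD54, a small-subunit guide within RPS20, was undetected on all TPCK arrays of both lines. In Raji it read 4.86, 4.68 and 4.45 after TPCK, against 6.01, 5.84 and 6.15 in controls, where it was detected on every array. The groups stood apart, and SNORD54 was at least 2.12-fold lower after TPCK (limma adjusted p = 0.00226), a call that held with any 1 array left out. A value below background gives only a bound, taken per array as the higher of the probe's own signal and the lowest signal of a detected probe. In DG75 it read 4.52, 4.49 and 4.41 after TPCK, against 4.78, 5.11 and 5.11 in controls, with the first control value undetected. There the controls were themselves near background, and the decrease was at least 1.06-fold (adjusted p = 0.275).

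In DG75 a further 3 RNAs fell after TPCK. SNORD14B, a copy of U14 within RPS13 that serves both methylation and cutting of the small-subunit RNA, had 5.09, 5.34 and 5.76 after TPCK, against 6.93, 6.84 and 6.74 in controls. The fall was 2.72-fold (-1.44 ± 0.15, limma adjusted p = 5.40e-05). In Raji it had 5.69, 5.81 and 5.74 after TPCK, against 6.22, 6.49 and 6.39, with no overlap, and the change was -0.62 ± 0.15 (adjusted p = 0.109), or 0.034 with no normalization between arrays. U14 has near-identical copies, and whether the probe binds several of them was not tested.

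SNORD36C, a large-subunit guide within RPL7A, had 6.15, 6.04 and 6.19 in DG75 after TPCK, against 7.79, 7.36 and 7.44 in controls. It fell 2.64-fold (-1.40 ± 0.21, limma adjusted p = 0.00270). SNORD36A, of the same host and a related sequence, had 8.64, 8.71 and 8.79 after TPCK, against 8.92, 8.69 and 8.89, which overlapped (-0.12 ± 0.14, adjusted p = 0.808). In Raji both lay below their controls on all TPCK arrays, with changes of -0.63 ± 0.21 for SNORD36C (adjusted p = 0.430) and -0.58 ± 0.14 for SNORD36A (adjusted p = 0.106). With median centring these Raji changes were 0.021 and 0.044.

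SNORD4B, a small-subunit guide within RPL23A, had 4.77, 4.72 and 5.07 in DG75 after TPCK, against 6.27, 6.10 and 6.08 in controls. It fell (-1.29 ± 0.17, limma adjusted p = 0.000768), but was detected on 1 of the 3 TPCK arrays, so the size of the fall is uncertain. Its partners in RPL23A were not called in DG75 after TPCK. SNORD4A had a change of -1.03 ± 0.24 (adjusted p = 0.0753), and SNORD42B, undetected on all DG75 TPCK and control arrays, gives no fold. In Raji the changes were -0.70 ± 0.17 for SNORD4B, -0.55 ± 0.24 for SNORD4A and -0.42 ± 0.15 for SNORD42B, all without overlap and none called. With no normalization those of SNORD4A and SNORD42B were 0.20 and 0.069. The calls of SNORD14B, SNORD36C and SNORD4B in DG75 held with any 1 array left out and without arrays 7 and 10, and all 3 were lost with median centring (adjusted p = 0.0654, 0.142 and 0.0613).

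Counted over both lines, 13 of the 31 RNAs had every TPCK array below every control of its line in DG75 and in Raji, against 1.11% of all genes. These were the 4 called in both lines, SNORD54, SNORD14B, SNORD36C, SNORD4A, SNORD4B, SNORD42B, SNORD22, SNORD31 and SNORD101. Of these, SNORD42B was undetected on all DG75 TPCK and control arrays, and SNORD54 on all TPCK arrays of both lines. SNORD4B and SNORD101 were undetected on some DG75 TPCK arrays, and SNORD73A on a Raji TPCK array. Where such RNAs are counted, here and under the settings below, the order of the arrays rests in part on background values. Another 4 (SNORD34, SNORD35A, SNORD43 and SNORD55) had every TPCK array above every control in both lines, against 1.98% of all genes. After Bay-11, 8 lay above in both lines (SNORD13, SNORD15B, SNORD21, SNORD33, SNORD34, SNORD35A, SNORD43 and SNORD55; 4.39% of all genes) and 1 below (2.63%). These counts hold for quantile normalization. With median centring 6 lay below after TPCK (SNORD30, SNORD31, SNORD48, SNORD54, SNORD73A and SNORD101; 0.131% of all genes) and 7 above (13.2%). With no normalization the same RNAs other than SNORD101, 5 in all, lay below (0.0841%) and 7 above (12.1%). After Bay-11, 11 lay above with median centring (13% of all genes) and 12 with no normalization (10.6%), and 0 below under either (0.0467%).

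The RNAs that rose included members from RPL13A, RPL3, RPS3, RPL5 and the SNORD13 gene. SNORD35A, a large-subunit guide, rose after Bay-11 in both lines and after TPCK in Raji. It had 7.74, 7.98 and 8.03 in DG75 after Bay-11, against 7.01, 6.95 and 7.28 in controls, a 1.79-fold rise (0.84 ± 0.17, limma adjusted p = 0.0377). In Raji it had 7.48, 7.09 and 7.48 after Bay-11, against 6.47, 6.76 and 6.07, a 1.89-fold rise (0.92 ± 0.17, adjusted p = 0.0175). After TPCK it had 7.53, 7.35 and 7.40 in Raji (0.99 ± 0.17, adjusted p = 0.0137) and 7.55, 7.87 and 7.89 in DG75 (0.69 ± 0.17, adjusted p = 0.103), each against the controls just given. Treated and control values did not overlap in any of the 4 comparisons, and the comparisons of 1 line share their controls. Each of the 3 calls was lost without some single arrays, the Raji TPCK call without array 1, 2, 3, 16 or 18, the Raji Bay-11 call without 4, 6, 16 or 18 and the DG75 call without 10, 11, 13 or 14 (highest adjusted p = 0.0777, 0.114 and 0.158).

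SNORD34, a large-subunit guide and also of RPL13A, had 7.08, 6.83 and 7.30 in Raji after Bay-11, against 6.26, 5.59 and 5.09 in controls. The rise was 2.68-fold (1.42 ± 0.22, limma adjusted p = 0.00811), and the call held with any 1 array left out. The Raji controls of SNORD34 spread over more than 1 unit, and their highest lay below the lowest treated value. Its other changes were 1.003 ± 0.225 in Raji after TPCK (adjusted p = 0.0716, and 0.00820 without array 16), 0.83 ± 0.22 in DG75 after Bay-11 (adjusted p = 0.0939) and 0.45 ± 0.22 in DG75 after TPCK (adjusted p = 0.462). The remaining RNAs of RPL13A, the guides SNORD33 and SNORD32A, were called in none of the 4 comparisons. SNORD33 had changes between -0.07 and 0.45, and SNORD32A between -0.53 and -0.05.

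**Figure D4:**
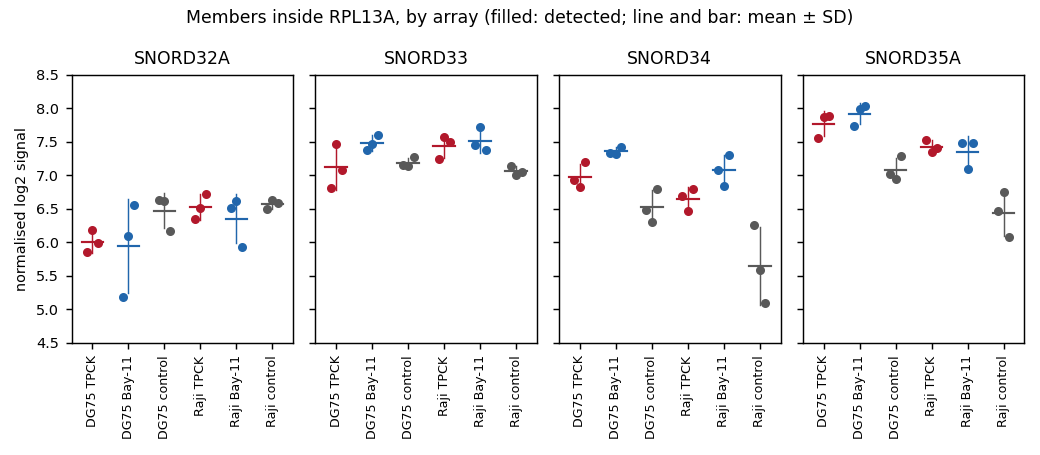
Normalised log2 signal (vertical axis) of the 4 box C/D RNAs inside RPL13A on each array, by group, with DG75 left and Raji right; filled points are detected, horizontal lines are means and vertical bars are SDs of 3 arrays. Treated arrays lie above controls for SNORD34 and SNORD35A in both lines, while SNORD32A overlaps its controls in each comparison.

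SNORD43, a small-subunit guide within RPL3, had 6.64, 6.58 and 6.41 in DG75 after Bay-11, against 5.42, 5.41 and 5.63 in controls. It rose 2.08-fold (1.06 ± 0.16, limma adjusted p = 0.00533). In Raji it rose after TPCK, with 6.22, 6.09 and 6.66 against 5.41, 5.15 and 5.62 in controls (0.93 ± 0.16, adjusted p = 0.0137), a call that ended when array 3, 16 or 17 was left out (highest adjusted p = 0.0788). The middle Raji control was undetected, and no treated value overlapped a control. In Raji after Bay-11 its change of 0.63 ± 0.16 was not called (adjusted p = 0.0604), but was without arrays 7 and 10 (adjusted p = 0.0351).

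SNORD55, a large-subunit guide, rose in DG75 after both compounds. It had 6.39, 6.40 and 6.04 after TPCK and 6.12, 6.41 and 6.35 after Bay-11, against 5.34, 5.56 and 5.11 in controls. The rise was 1.92-fold after TPCK (0.94 ± 0.14, limma adjusted p = 0.00283) and 1.94-fold after Bay-11 (0.96 ± 0.14, adjusted p = 0.00407), and both calls held with any 1 array left out. In Raji the changes were 0.45 ± 0.14 after TPCK (adjusted p = 0.363) and 0.37 ± 0.14 after Bay-11 (adjusted p = 0.180), without overlap. SNORD38B was undetected on all DG75 controls, was at least 1.56-fold higher there after Bay-11 and was not called (adjusted p = 0.0848).

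SNORD15B, a large-subunit guide within RPS3, rose after Bay-11 in both lines. It had 7.05, 7.29 and 7.31 in DG75, against 6.48, 6.52 and 6.74 in controls (0.64 ± 0.13, limma adjusted p = 0.0349). In Raji it had 7.70, 7.79 and 7.63, against 7.14, 7.03 and 6.93 (0.68 ± 0.13, adjusted p = 0.0175). The sizes were small, 1.56-fold and 1.60-fold, and the calls were lost without array 11, 13 or 14 in DG75 (highest adjusted p = 0.151) and without 4, 6, 17 or 18 in Raji (0.0757). After TPCK its changes were 0.07 ± 0.13 in DG75 and 0.16 ± 0.13 in Raji, with overlap in both lines.

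SNORD21, a large-subunit guide in the overlapping genes RPL5 and DIPK1A, had 7.54, 7.55 and 7.35 in DG75 after Bay-11, against 6.64, 6.32 and 6.82 in controls. The rise was 1.85-fold (0.89 ± 0.18, limma adjusted p = 0.0383). The call ended without array 10, 11, 13 or 14 (highest adjusted p = 0.1698). It also ended without arrays 7 and 10 together (adjusted p = 0.144). In Raji after Bay-11 the change was 0.64 ± 0.18 and not called (adjusted p = 0.0922), although every treated value lay above every control.

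SNORD13 differs from the other RNAs in having its own promoter and in guiding acetylation, rather than methylation, of the small-subunit RNA. In Raji it had 8.06, 7.68 and 8.34 after Bay-11, against 6.71, 6.12 and 6.23 in controls, a 3.18-fold rise (1.67 ± 0.29, limma adjusted p = 0.0135). Leaving out array 4, 6, 17 or 18 ended that call (highest adjusted p = 0.0818). In DG75 it had 9.37, 9.35 and 9.81 after Bay-11, against 8.75, 8.66 and 8.34, again with no overlap, and the change of 0.93 ± 0.29 was not called (adjusted p = 0.137). After TPCK its values overlapped the controls in both lines, at 8.74, 7.63 and 7.57 in DG75 (-0.60 ± 0.29, adjusted p = 0.453) and 6.66, 7.21 and 7.52 in Raji (0.77 ± 0.29, adjusted p = 0.549).

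TPCK and Bay-11, given at different doses, were also set against each other within each line. In DG75, 7 RNAs were lower after TPCK than after Bay-11 and 0 were higher, while 0.159% of all genes were lower and 0.028% higher. They were SNORD100 (-1.76 ± 0.18, limma adjusted p = 0.000168), SNORD36C (-1.65 ± 0.21), SNORD13 (-1.52 ± 0.29), SNORD4A (-1.41 ± 0.24), SNORD21 (-1.34 ± 0.18), SNORD14B (-1.34 ± 0.15) and SNORD73A (-1.19 ± 0.18). In Raji, 5 were lower and 0 higher (0.15% and 0.122% of all genes). These were SNORD54 (at least 2.09-fold, adjusted p = 0.00463), SNORD73A (-1.30 ± 0.18), SNORD100 (-1.20 ± 0.18), SNORD21 (-0.98 ± 0.18) and SNORD14B (-0.82 ± 0.15). The doses were 75 µM for TPCK and 50 µM for Bay-11, so compound and dose cannot be told apart. Without arrays 7 and 10, 7 RNAs were lower and 0 higher in DG75 (0.131% and 0.0374% of all genes), where SNORD73A (adjusted p = 0.154) and SNORD4A (adjusted p = 0.251) were lost. In Raji 10 were then lower and 0 higher (0.346% and 0.262%). In Raji 2 were lower without array 1 or 6 and 3 without array 2 or 4, counts given without shares of all genes. Single arrays ended the calls of SNORD100 (1 or 6), SNORD14B (1, 2, 3, 4 or 6) and SNORD21 (1, 2, 4, 5 or 6) in Raji. In DG75 they ended those of SNORD13 (8, 9, 10, 11 or 12), SNORD4A (7, 8, 10 or 11) and SNORD73A (7). With no normalization between arrays, limma called 0 in Raji (0.028% of all genes), where 10 were lower at an unadjusted p under 0.05. That count of 10 stands without a share of all genes. The replicate numbers of the second deposited table were also used as a block, an uncertain pairing of these 2 groups by the values alone. Of 26 RNAs in that table, 10 were then lower in Raji, against 11 without the block. The share of all genes is not given there.

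Over the 31 RNAs, the TPCK changes in DG75 and in Raji had a Pearson r of 0.84 and a Spearman rho of 0.85, and the Bay-11 changes 0.79 and 0.83. Over all genes r was 0.27 for TPCK and 0.47 for Bay-11. These values are over RNAs, which share arrays, hosts and a signal scale and are not independent replicates. As quantile normalized, the TPCK change was below 0 in both lines for 21 RNAs and above 0 in both for 7. The share of all genes is not given beside these counts. Some of the 21, such as SNORD54 and SNORD18C, were undetected on all TPCK arrays. With median centring the TPCK change turned its sign for 6 RNAs in DG75 and 9 in Raji.

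**Figure D5:**
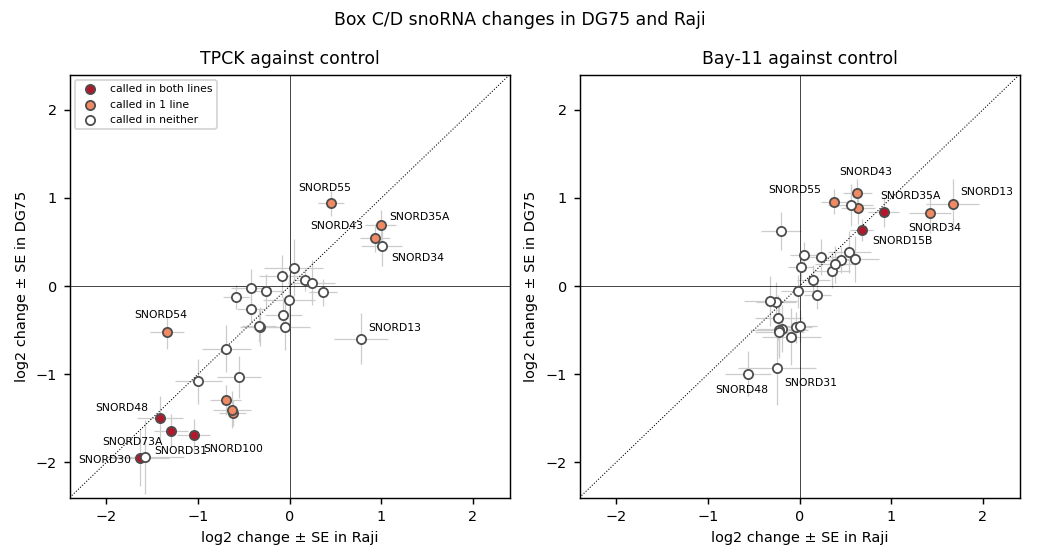
Log2 change ± SE of the 31 box C/D RNAs in DG75 (vertical axis) and Raji (horizontal axis) after TPCK (left panel) and Bay-11 (right panel), each against untreated cells. Points are coloured by the number of lines in which they were called, the dotted line marks equal change, and the points follow it with r = 0.84 for TPCK and 0.79 for Bay-11.

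A test of the difference between lines called 0 RNAs for either compound, and 0 of all genes (0%). At an unadjusted p under 0.05, 8 RNAs differed in their TPCK change (5 lower and 3 higher in DG75), as did 5.56% of all genes, and 2 differed in their Bay-11 change, as did 6.47%. The largest TPCK differences, as DG75 minus Raji, were those of SNORD13 (-1.37, 95% interval -2.25 to -0.50) and SNORD14B (-0.82, interval -1.27 to -0.37). For SNORD54, undetected on all TPCK arrays, no difference is given. A call in 1 line and not in the other is therefore not shown to differ between lines for any of these RNAs.

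Untreated, the lines differed in 9 of the 31 RNAs, with 5 lower and 4 higher in DG75, while 18.2% of all genes were lower and 20.7% higher (38.9% in all). SNORD13 differed most, at 8.75, 8.66 and 8.34 in DG75 against 6.71, 6.12 and 6.23 in Raji, 4.68-fold higher in DG75 (2.23 ± 0.29, limma adjusted p = 1.02e-05). SNORD54 was 4.78, 5.11 and 5.11 in DG75, against 6.01, 5.84 and 6.15 in Raji, lower in DG75 (-1.003 ± 0.184, adjusted p = 0.000324), where the first value was undetected and the size is uncertain. SNORD34 was higher in DG75, with 6.48, 6.30 and 6.80 against 6.26, 5.59 and 5.09 in Raji (0.88 ± 0.22, adjusted p = 0.00482), as was SNORD35A (0.65 ± 0.17, adjusted p = 0.00624) with 7.01, 6.95 and 7.28 against 6.47, 6.76 and 6.07. In these 4 RNAs the lines did not overlap. Also called were SNORD100 (-0.67 ± 0.18), SNORD56 (-0.67 ± 0.20), SNORD15B (-0.45 ± 0.13) and SNORD14B (0.47 ± 0.15). SNORD42B was undetected on all DG75 controls and at least 1.36-fold lower there. Single arrays ended the calls of SNORD14B (13 or 16), SNORD42B (16) and SNORD56 (13, 14 or 16). With median centring 1 RNA was lower and 5 higher in DG75 (7.6% and 21.1% of all genes).

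The host genes were read by probes of their own. Hosts could be read for 23 pairs of a small RNA and a host, over 15 hosts. In limma 0 of these hosts were called after either compound in either line (3 had an unadjusted p under 0.05 in some comparison), and their changes lay between -0.34 and 0.29. Of all genes 0.439% to 1.51% were called in these comparisons, so 0 of 15 hosts is near that share. RPS12 had changes of -0.26 in DG75 and -0.18 in Raji after TPCK, where SNORD100 had -1.69 and -1.05. RPS3A had -0.07 and -0.11, where SNORD73A had -1.64 and -1.30, and SNHG32 had 0.19 and 0.04, where SNORD48 had -1.50 and -1.42. RPL13A had -0.08 in DG75 and -0.10 in Raji after Bay-11, where SNORD35A had 0.84 and 0.92. Over the 23 pairs the Pearson r between the changes of small RNA and host was 0.25 in DG75 and 0.47 in Raji after TPCK and -0.26 and -0.30 after Bay-11, given as a description over pairs that share hosts and arrays. The labelling kit primes with oligo(dT), and whether a probe reads a mature small RNA or its longer precursor was not tested.

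Proteins that build, process and carry box C/D particles were looked up as lists. All 4 core proteins (FBL, NOP56, NOP58 and SNU13) were measured, and limma called 0 after either compound in either line (2 estimates had an unadjusted p under 0.05). In these comparisons 0.439% to 1.51% of all genes were called, so 0 in lists of these sizes is near that share. At an unadjusted p under 0.05 in limma, 707 to 2025 of 10697 genes passed. Between the untreated lines, where 38.9% of all genes were called, 1 core protein was higher in DG75 (NOP58, 0.63 ± 0.14, limma adjusted p = 0.00139). So were 4 of 11 assembly factors (ZNHIT3, ZNHIT6, NOPCHAP1 and SHQ1), and 10 of 23 processing factors were called, 6 higher and 4 lower. After treatment, of 11 assembly factors, 1 was lower in Raji after Bay-11, the chaperone cofactor NOPCHAP1 (-0.61 ± 0.14, adjusted p = 0.0452), and 0 were called in the other 3 comparisons. Over the 4 comparisons, 2 assembly factor estimates had an unadjusted p under 0.05 in limma. Of 23 processing, trafficking and decay factors limma called 0 in the 4 comparisons (6 estimates had an unadjusted p under 0.05), and list medians lay between -0.11 and 0.01. Of 24 noncoding genes known to host small nucleolar RNAs, 9 were measured, and SNHG10 was lower in Raji after TPCK (-1.05 ± 0.22, adjusted p = 0.0455) and after Bay-11 (-1.11 ± 0.22, adjusted p = 0.0228). An unadjusted limma p under 0.05 was seen for 9 estimates of these genes over the 4 comparisons. Their list medians were -0.25 in Raji and -0.19 in DG75 after Bay-11, and 0.04 and -0.06 after TPCK.

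Among the 16 RNAs called in no comparison with controls, SNORD16 within RPL4 and SNORD68 within RPL13 were detected on every array. SNORD16 had changes of 0.21 ± 0.32 in DG75 and 0.04 ± 0.32 in Raji after TPCK, and SNORD68 had 0.04 ± 0.26 and 0.24 ± 0.26, with overlap in all 4. SNORD35B had changes of -0.06 ± 0.20 in DG75 and -0.26 ± 0.20 in Raji after TPCK. SNORD56 within NOP56, the gene of a core protein, had -0.32 ± 0.20 and -0.07 ± 0.20. With median centring the changes of SNORD35B and SNORD56 were above 0 in both lines. SNORD18C within RPL4 was undetected on all TPCK arrays and detected on 1 control array of each line, so that its values lie at background.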

How the data were processed

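RNA of the 18 samples was labelled with an Ambion MessageAmp kit, per the labels' protocols, and hybridised to Illumina bead arrays. Per the file headers, the authors deposited raw bead signals on a log2 scale for 49576 probes. Each deposited signal has a detection p-value, per the file headers. Scanner software and genome build: not given in the sources used here. Names placed all 18 array columns in groups and left 0 unused. With limma 3.58.1 (R 4.3.3), neqc applied normexp (offset 16) and quantile normalization. Probes were kept with a detection p under 0.01 on at least 3 arrays, and the kept probe with the highest mean stood for each of 10697 genes. Symbols came from the platform annotation, and all 33 small RNAs matched RefSeq by Entrez identifier. The host genes of some small RNAs are not reported here.

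The 6 group means were estimated in a single limma model of all 18 arrays (12 residual and 4.26 prior degrees of freedom), and an adjusted p under 0.05 is called. The model was tested on simulated data with independent values and changes set in DG75 after TPCK alone. That simulation held no array effects or overall shifts, so it cannot speak to them. The small RNAs, gene lists, tests and naming rule were chosen with earlier results of these data known. By that rule, array values are given for called RNAs (at most 6 per treatment comparison and 4 for the untreated lines), estimates for other called RNAs and for the 2 largest changes not called, and names for hosts and called list members. Values of SNORD36A, SNORD22, SNORD25, SNORD32A, SNORD33, SNORD4A, SNORD42B, SNORD38B, SNORD16, SNORD35B, SNORD56, SNORD68 and SNORD18C are given to account for the rest, and were added after they had been seen.

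Alternatives were other scalings, backgrounds, offsets and filters, every kept probe, omission of arrays, and a second deposited table of log2 values with replicate numbers. That table covered 26 small RNAs in Raji as processed values, and 31 for DG75 TPCK against control as raw signals. For Raji TPCK and Bay-11, columns of the same number had correlations of 0.119, 0.102 and 0.203, and the numbers were taken to pair those groups from these values alone. Columns of unlike number reached 0.037 there, but 0.180 between Raji Bay-11 and control and 0.169 between DG75 TPCK and control. The pairing is therefore uncertain. Between Raji TPCK or Bay-11 and control, and between DG75 TPCK and control, columns of the same number had correlations from -0.140 to 0.071.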

Additional observations from a re-analysis of the deposited data

How the results depend on the processing

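No change called as quantile normalized reversed its sign. Counts are members called, in the order DG75 TPCK, Raji TPCK, DG75 Bay-11 and Raji Bay-11, each against control, then TPCK against Bay-11 in DG75 and Raji. With median centring they were 4, 12, 8, 9, 3 and 1 (0.206%, 30.6%, 2.54%, 6.81%, 0.0748% and 0.0748% of all genes), and the medians that moved by more than the spread between arrays were -0.11, 0.085, 0.57 and 0.60 in the first 4 and -0.39 in the last. With no normalization the count was 2 for DG75 TPCK against Bay-11 (0.0467% of all genes). For the treatments against control it was 1, 12, 2 and 8 (0.122%, 47.3%, 0.0935% and 5.98%). For Raji TPCK against Bay-11 it was 0 in limma (10 at an unadjusted p under 0.05, a count without a share of all genes). Medians were -0.024, 0.20, 0.57 and 0.66 for the treatments and -0.34 for Raji TPCK against Bay-11. For the untreated lines the median was 0.13 with median centring and 0.14 with no normalization, where 3 were called (24.3% of all genes). For the TPCK response of DG75 minus Raji it was -0.46 and -0.49. With an offset of 50, Raji TPCK against Bay-11 gave 8 (share of all genes not given). Medians under that offset were -0.23 in DG75 TPCK and -0.34 in DG75 TPCK against Bay-11. Without arrays 7 and 10, Raji Bay-11 gave 7, Raji TPCK against Bay-11 gave 10, and the median Bay-11 response of DG75 minus Raji was 0.10.

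The second deposited table held 26 of the RNAs among 7990 genes as processed values. There Raji Bay-11 gave 13 calls (median 0.56), the Raji TPCK median was -0.088, and Raji TPCK against Bay-11 gave 11. With the replicate numbers as a block these were 13, 0.56, -0.088 and 10. Its raw DG75 signals, with 31 RNAs among 10697 genes, gave 2 for TPCK against control with and without the replicate block. The median over these RNAs was 0.015, above 0, where it was -0.45 as quantile normalized. Shares and medians over all genes are not given for this table, so these values do not show a change particular to the small RNAs. For the comparisons other than Raji TPCK against Bay-11 the samples share only a number, and the block moved no count by over 1.5 times.

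Changes that were not called as quantile normalized and turned from below to above 0 included the following. In DG75 after TPCK they included SNORD25 (0.22), SNORD33 (0.31), SNORD35B (0.32), SNORD36A (0.21) and SNORD56 (0.045) with median centring. With no normalization these were 0.31, 0.39, 0.40, 0.30 and 0.13, and in the raw signals of the second table, with and without the replicate block, 0.28, 0.35, 0.36, 0.28 and 0.13, with SNORD32A at 0.0027. SNORD27 also turned, at 0.21 with median centring and 0.30 with no normalization, and SNORD21 at 0.023 with no normalization. Without arrays 7 and 10, SNORD33 (0.083) and SNORD35B (0.0027) turned. In Raji after TPCK they included SNORD25 (0.62), SNORD32A (0.55), SNORD35B (0.38), SNORD36A (0.044), SNORD36C (0.021), SNORD4A (0.085) and SNORD56 (0.56) with median centring. With no normalization these were 0.73, 0.66, 0.50, 0.15, 0.13, 0.20 and 0.68 (SNORD56 called, limma adjusted p = 0.0487), with SNORD14B at 0.034 and SNORD42B at 0.069. SNORD21 and SNORD38B also turned, at 0.27 and 0.13 with median centring and 0.38 and 0.25 with no normalization. In the second table, with and without the replicate block, SNORD25 (0.30), SNORD32A (0.30) and SNORD56 (0.15) turned. SNORD32A in Raji after Bay-11 was 0.22 with median centring, 0.28 with no normalization and 0.092 in the second table with and without the block. With median centring and with no normalization alike, 10 RNAs, SNORD32A among them, turned from below to above 0 there. In DG75 after Bay-11, 3 did under each of these settings (SNORD14B, SNORD25 and SNORD54). With 1 array left out, changes near 0 crossed it for SNORD15B (-0.012 to 0.15), SNORD33 (-0.24 to 0.083), SNORD35B (-0.23 to 0.12) and SNORD68 (-0.076 to 0.17) in DG75 after TPCK. In Raji they were SNORD16 (-0.010 to 0.099), SNORD25 (-0.13 to 0.14), SNORD32A (-0.15 to 0.042) and SNORD56 (-0.20 to 0.038).

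With 1 array left out, counts ran from 3 to 5 in Raji TPCK, 2 to 8 in DG75 Bay-11, 1 to 4 in Raji Bay-11 and 2 to 5 in Raji TPCK against Bay-11. Shares of all genes are not given beside these counts. The median Bay-11 response of DG75 minus Raji ran from -0.19 to 0.10. The cause of these shifts was not tested. Of the 31 RNAs, 9 were undetected on some arrays, and the size of a change that rests on such arrays is uncertain.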
